A study of Mus musculus with 18 samples.

Results

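The expression of 35 genes of glycolysis and of the transcriptional response to low oxygen was followed in mouse fibroblasts of 3 organs, in culture and after transplantation. The genes were chosen by symbol: 21 act in glucose uptake, glycolysis and the handling of pyruvate and lactate, and 14 are subunits, regulators or known targets of hypoxia-inducible factor (HIF). All 35 symbols matched exactly 1 row each of the 38924 Ensembl genes in the count table, and all 35 were among the 16577 genes with enough reads to be tested. Fibroblasts had been grown for 10 days from the heart, kidney and tail of male ROSA mT/mG mice aged 10 weeks, which express membrane TdTomato from the Rosa locus in all cells. Part of each culture was absorbed on gelatin foam and placed under the kidney capsule of C57BL6/J recipients, and live CD45-;TdTomato+ cells were sorted 3 days later. These are the transplanted fibroblasts, named HFs for heart, KFs for kidney and TFs for tail. The remaining cells were replated as the controls in culture (HFc, KFc and TFc for the same organs). There were 3 libraries for each of the 6 groups, made with a stranded total RNA kit, and the study describes them as biological replicates. Nothing in the labels states whether the libraries of a group came from separate animals, so that the p-values below measure the spread between these libraries. All 6 groups carried the reporter and had passed through culture, and no group was taken directly from its organ. Foam, surgery, site, the 3 days in a host and recovery from the kidney by sorting all changed together between the cultured and transplanted cells. The CD45-;TdTomato+ sort is described for the transplanted cells only.

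Glycolysis converts glucose to pyruvate, which is either oxidised in mitochondria or reduced to lactate and exported. In well-oxygenated cells, prolyl hydroxylases mark the HIF alpha subunits, HIF-1α (Hif1a) and HIF-2α (Epas1), for degradation; when oxygen is scarce the subunits persist, pair with HIF-1β and bind short elements with the core letters ACGTG or GCGTG in the promoters of glycolytic, angiogenic and mitophagy genes. Much of this control acts on the HIF proteins, which were not measured here, and in bulk RNA a smaller share of cells of one type and less RNA per cell cannot be told apart.

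Library totals lay between 17927838 and 32245168 counts. Values are given as CPM, the reads of a gene relative to the size of its library, scaled by edgeR's TMM method, and levels of different genes are compared only as CPM per kilobase of the gene's principal transcript. KFs replicate 3 stood apart: Xist, transcribed from the inactive X chromosome of females, had 1716 CPM of the unscaled total there and at most 0.396 CPM in the other 17 libraries, whereas 4 Y-linked genes summed to 0.83 CPM there and to between 173.5 and 221.5 CPM elsewhere. This goes against the labelled male donors. The same library had a summed level of 10 fibroblast markers of 23110 CPM, against 72720 and 95550 CPM in the other KFs libraries. In KFc the sums lay between 15590 and 16540 CPM. Calls between KFs and KFc and between responses that changed without KFs replicate 3 are therefore also given, those between organs as counts. The fibroblast markers summed to between 19290 and 20290 CPM in HFc and between 69410 and 114900 CPM in HFs. In tail they summed to between 19130 and 19250 CPM in TFc and between 35910 and 42740 CPM in TFs. The part of these higher sums in the member genes' levels was not tested. Markers of other cell types were also counted in every library. The 12 proximal tubule markers summed to between 21.2 and 23.8 CPM in HFc and between 73.8 and 1090 CPM in HFs, highest in replicate 2, to between 104.3 and 112.6 CPM in KFc and between 60.2 and 123.2 CPM in KFs, and to between 20.4 and 23.1 CPM in TFc and between 136.6 and 353.6 CPM in TFs. Of these markers 6 in HFc, 6 in KFc and 5 in TFc, Kap and Slc27a2 among them in each group, were at 0 in every cultured library, and none was at 0 in a transplanted group. Macrophage markers, with no marker at 0 in any group, summed to between 504.3 and 543.8 CPM in KFc and between 45.5 and 169.4 CPM in KFs, to between 207.3 and 239 CPM in TFc and between 48.1 and 58.7 CPM in TFs, and to between 107.1 and 126.3 CPM in HFc and between 99.1 and 165.7 CPM in HFs. The 8 endothelial markers summed to between 37.8 and 40.3 CPM in HFc and between 54.1 and 63.9 CPM in HFs, where 7 of them rose, to between 35.4 and 37.4 CPM in KFc and between 29 and 46.5 CPM in KFs (4 rose and 1 fell), and to between 40.2 and 44.9 CPM in TFc and between 46 and 48.8 CPM in TFs (3 rose), with Emcn at 0 in HFc and TFc and Tie1 in TFc. The 6 erythroid markers summed to at most 0.21 CPM in culture and 38.7 CPM in transplanted libraries, with 5 of them, globin genes included, at 0 in each cultured group. The part of these cells in the member genes' levels was not tested. Nor was the part of the CD45- sort of transplanted cells in the macrophage sums. The median SD of log2 CPM over the members was 0.0482 to 0.0676 in the cultured groups and 0.27, 0.494 and 0.35 in HFs, KFs and TFs, so that precision was set by the transplanted libraries.

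Genes of the hypoxia response and selected steps of glycolysis were expressed at higher levels after transplantation in all 3 organs, with the largest mean log2 changes over the organs for the prolyl hydroxylase Egln3, the carbonic anhydrase Car9, the lactate exporter Slc16a3 and the mitophagy receptor Bnip3. With an adjusted p under 0.05 and a log2 fold change above 1 (edgeR quasi-likelihood test, Benjamini-Hochberg adjustment over all genes tested), 14 members rose in HFs relative to HFc and 2 fell, against 18.3% of all tested genes that rose and 9.33% that fell. In KFs relative to KFc 20 rose and 1 fell, where 14.7% of all genes rose and 7.99% fell. In TFs relative to TFc 16 rose and none fell, where 11% of all genes rose and 5.53% fell. None fell with DESeq2 either, and 1 member, Pkm, had a lower value in tail with an unadjusted p under 0.05. The median log2 fold change over the members was 0.68 in heart, 1.23 in kidney and 0.98 in tail, against 0.05, 0.09 and 0 over all genes. All 3 transplanted libraries lay above all 3 cultured ones for 19 members in heart, 28 in kidney and 31 in tail, and all lay below for 5, 1 and 0 members. Such separation was not counted over all genes, so these counts have no background to be set against. Of the 21 glycolytic members 6 rose in heart, 10 in kidney and 6 in tail, and of the 14 hypoxia response members 8, 10 and 10. In all 3 organs 11 members rose, 6 rose in 2 organs, 5 in 1, 2 fell in at least 1 organ without rising in any (Epas1 and Adm), and 11 passed in none. Without KFs replicate 3 the kidney comparison again called 20 higher and 1 lower, with Pgam1 in place of Eno2.

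**Figure D1:**
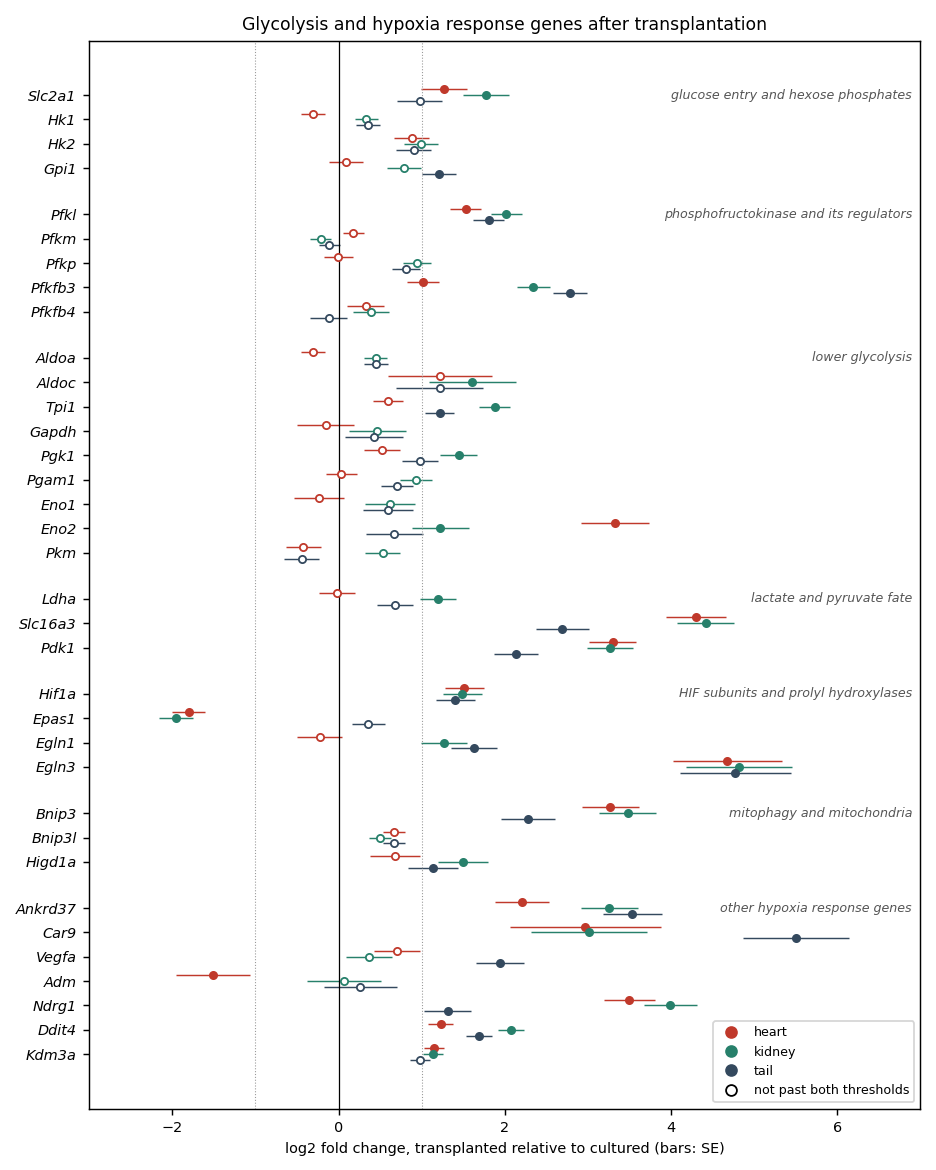
Log2 fold change of each of the 35 genes in transplanted relative to cultured heart (red), kidney (green) and tail (dark blue) fibroblasts, with SE bars and genes grouped by role. Filled points passed both thresholds, and dotted lines mark log2 values of -1 and 1. The largest rises were those of Car9 in tail (5.50) and Egln3 in all 3 organs (4.68 to 4.82), whereas Epas1 fell in heart and kidney.

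Of the prolyl hydroxylase genes, Egln3 rose in all 3 organs and Egln1 in kidney and tail. Egln3 (ENSMUSG00000035105), which encodes the prolyl hydroxylase PHD3 and is itself a HIF target, went from 1.57, 0.542 and 2.11 CPM in HFc to 18.8, 38.0 and 48.0 CPM in HFs. In kidney it went from 1.83, 2.37 and 1.10 CPM to 55.5, 77.3 and 16.5 CPM, and in tail from 1.25, 1.18 and 0.482 CPM to 45.9, 17.4 and 18.7 CPM. Every transplanted library lay above every cultured one, and KFs replicate 3 was the lowest transplanted library. The log2 fold changes were 4.68 ± 0.66 (SE) in heart, 4.82 ± 0.64 in kidney and 4.77 ± 0.67 in tail, with adjusted p of 2.3e-05, 2e-05 and 5.6e-05, and no difference between organs passed (adjusted p of 0.94 or above).

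Hif1a (ENSMUSG00000021109) rose by a similar factor in all 3 organs. Its level went from 138, 137 and 142 CPM in HFc to 425, 405 and 361 CPM in HFs, a log2 fold change of 1.51 ± 0.24 (adjusted p 6.1e-05). KFc libraries had 219, 219.6 and 225 CPM and KFs libraries 632, 905 and 325 CPM (1.49 ± 0.24, adjusted p 9.8e-05), and TFc libraries had 223, 244 and 235 CPM against 699.97, 608 and 552 CPM in TFs (1.40 ± 0.23, adjusted p 0.00025). The groups did not overlap in any organ. The responses differed by 0.03 to 0.11 on the log2 scale with SEs of 0.33, and none of these differences passed (adjusted p of 0.85 or above).

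Epas1 (ENSMUSG00000024140), which encodes HIF-2α, moved the other way in heart and kidney. It was far higher in cultured heart fibroblasts than in any other group, with 687, 693 and 703 CPM in HFc, and had 172, 183 and 243 CPM in HFs. In kidney it went from 80.6, 68.6 and 79.2 CPM to 23.9, 20.6 and 14.2 CPM. Tail fibroblasts had 48.9, 46.5 and 49.6 CPM in TFc and 60.7, 80.8 and 44.1 CPM in TFs. All HFs and KFs libraries lay below their controls, while the tail groups overlapped. Epas1 thus fell by 1.80 ± 0.20 on the log2 scale in heart (adjusted p 2.4e-06) and fell by 1.96 ± 0.21 in kidney (adjusted p 2.1e-06), and its tail value was 0.36 ± 0.20 (adjusted p 0.17). The response differed from that of tail by -2.16 ± 0.28 in heart (adjusted p 7.9e-05) and by -2.31 ± 0.28 in kidney (adjusted p 0.00014), and heart and kidney differed by 0.16 ± 0.28 (adjusted p 0.74).

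Per kilobase, the ratio of Epas1 to Hif1a was 4.25 to 4.32 in the HFc libraries and 0.346 to 0.577 in the HFs libraries. It was 0.267 to 0.315 in KFc and 0.0195 to 0.0375 in KFs, and 0.163 to 0.187 in TFc and 0.0685 to 0.114 in TFs. Cultured heart fibroblasts were therefore the only group in which Epas1 RNA exceeded Hif1a RNA, and in each organ the ratio was lower in every transplanted library than in every cultured one.

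**Figure D2:**
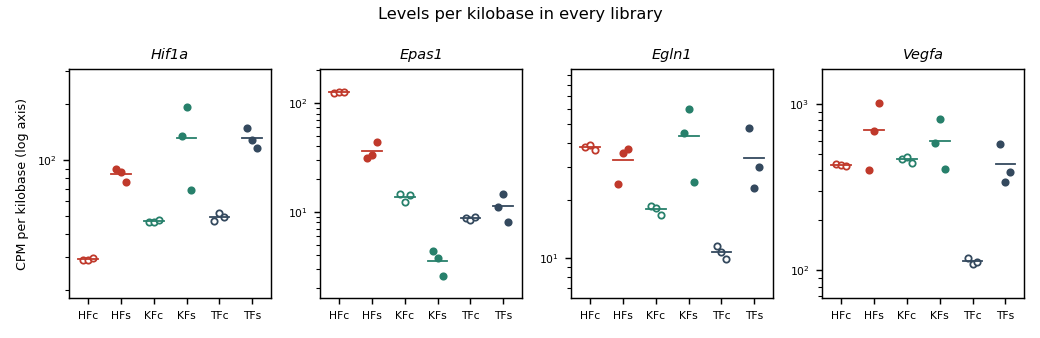
CPM per kilobase of principal transcript (log axis) of Hif1a, Epas1, Egln1 and Vegfa in each of the 18 libraries. Open points are cultured and filled points transplanted libraries, and lines are group means. Hif1a was higher in every transplanted library, Epas1 was lower in HFs and KFs only, and Egln1 and Vegfa were lowest in TFc.

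Egln1, which encodes PHD2, the main oxygen sensor of most cells, rose in kidney and tail. KFc libraries had 67.5, 65.6 and 60.4 CPM and KFs libraries 161, 216 and 89.3 CPM (log2 fold change 1.27 ± 0.27, adjusted p 0.0013). TFc libraries had 41.6, 38.7 and 35.6 CPM and TFs libraries 170.3, 83.0 and 107 CPM (1.63 ± 0.28, adjusted p 0.00029). In heart, where the cultured level was already 136, 140.2 and 131 CPM, HFs libraries had 87.9, 127 and 133 CPM (-0.23 ± 0.27, adjusted p 0.49). Heart groups overlapped and the others did not. The heart response was lower than the tail response by a log2 difference of -1.86 ± 0.38 (adjusted p 0.003) and lower than the kidney response by -1.50 ± 0.38 (adjusted p 0.0093). The kidney value was 0.91, under the fold limit, without KFs replicate 2.

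Slc16a3 and Pdk1, which act in the export of lactate and the diversion of pyruvate, rose in all 3 organs. Slc16a3 (ENSMUSG00000025161), the lactate exporter MCT4, went from 2.48, 2.74 and 1.92 CPM in HFc to 39.9, 45.6 and 56.6 CPM in HFs, from 5.89, 6.07 and 6.21 CPM in KFc to 107, 204 and 77.0 CPM in KFs, and from 9.91, 11.5 and 11.2 CPM in TFc to 102, 48.4 and 60.4 CPM in TFs. HFs libraries lay below KFs libraries and both overlapped with TFs, while HFc was lowest and TFc highest among the cultured groups. The rises were 4.30 ± 0.36, 4.42 ± 0.34 and 2.69 ± 0.32 on the log2 scale (adjusted p 1.5e-07, 1.1e-07 and 1.1e-05). Heart and kidney responses exceeded that of tail by 1.61 ± 0.45 and 1.72 ± 0.43 (adjusted p 0.019 in both), and the second difference had an adjusted p of 0.063 in a fit to the 4 groups alone.

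Pdk1, a kinase that inhibits pyruvate dehydrogenase and so limits the oxidation of pyruvate in mitochondria, went from 7.65, 7.01 and 9.58 CPM in HFc to 61.2, 80.8 and 95.1 CPM in HFs and from 11.04, 9.98 and 9.77 CPM in KFc to 109.6, 130.4 and 56.4 CPM in KFs. TFc libraries had 18.8, 23.1 and 25.04 CPM and TFs libraries 123, 75.1 and 95.3 CPM. No cultured library reached a transplanted one. The log2 fold changes were 3.30 ± 0.28, 3.27 ± 0.28 and 2.14 ± 0.26 (adjusted p 1.9e-07, 2.8e-07 and 1.8e-05). The heart response exceeded the tail response by 1.16 ± 0.37 (adjusted p 0.033), a call lost when any one of 8 of the 12 libraries was left out (adjusted p of 0.057 to 0.08), and the kidney difference of 1.13 ± 0.36 did not pass (adjusted p 0.058), but did without KFs replicate 3 (1.39, adjusted p 0.0018).

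Ldha, the lactate dehydrogenase subunit that favours lactate formation, was about equal in HFc, with 281, 291 and 286 CPM, and HFs, with 239.8, 265 and 345 CPM (log2 fold change -0.02 ± 0.21, adjusted p 0.96). It rose in kidney from 245, 239 and 247 CPM to 497, 797 and 381 CPM (1.2 ± 0.22, adjusted p 0.00032). Tail libraries had 259, 260.3 and 254 CPM in TFc and 529.6, 345 and 362 CPM in TFs (0.68 ± 0.21, adjusted p 0.021, under the fold limit). Heart groups overlapped and kidney groups did not. The heart response was lower than that of kidney by -1.21 ± 0.30 (adjusted p 0.0083). Without KFs replicate 2 the kidney rise was 0.80.

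Of the sugar-entry members, Slc2a1, the glucose transporter GLUT1, rose in heart (log2 fold change 1.27 ± 0.28, adjusted p 0.0011) and kidney (1.77 ± 0.28, adjusted p 8.5e-05) and had 0.98 ± 0.27 in tail, just under the fold limit (adjusted p 0.01). Hk2, the inducible hexokinase, stayed under that limit in all 3 organs, at 0.88, 0.99 and 0.90, with adjusted p of 0.0022, 0.00098 and 0.0031. Gpi1, glucose-6-phosphate isomerase, had 246, 247 and 242 CPM in HFc and 214, 295 and 275 CPM in HFs, 220.4, 221 and 211 CPM in KFc and 388, 495 and 243 CPM in KFs, and 121, 121 and 116 CPM in TFc and 352, 218 and 258 CPM in TFs. It rose in tail (1.21 ± 0.21, adjusted p 0.00031), where the cultured level was lowest, and its heart response was lower by -1.12 ± 0.29 (adjusted p 0.012). Without TFs replicate 1 the tail value was 1.00, at the fold limit.

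Hk1, the constitutive hexokinase, had 143, 144 and 144 CPM in HFc and 107, 116 and 125 CPM in HFs. KFc libraries had 153, 140.1 and 133 CPM and KFs libraries 181, 212 and 144 CPM, and TFc libraries had 134, 137 and 128 CPM and TFs libraries 214, 144 and 152 CPM. All HFs libraries lay below HFc, and all TFs libraries above TFc. None of the 3 values, between -0.31 and 0.35 on the log2 scale, passed, but the heart response was lower than those of tail (-0.66 ± 0.20) and kidney (-0.65 ± 0.20), with an adjusted p of 0.027 in both, and both calls were lost when any one of several libraries was left out. The share of Hk2 in the summed per-kilobase level of both hexokinases rose from 14.9% ± 0.12 (SD, n = 3) in HFc to 28.4% ± 2.1 in HFs, from 39.7% ± 1.7 to 50.5% ± 8.9 in kidney, and from 21.5% ± 1.2 to 28.4% ± 2.6 in tail, as values without a test.

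Phosphofructokinase, the committed step of glycolysis, changed in its isoform composition. Pfkl, the liver-type subunit, went from 54.5, 55.1 and 56.8 CPM in HFc to 117, 158 and 204 CPM in HFs, from 49.6, 51.3 and 51.5 CPM in KFc to 201, 259 and 157 CPM in KFs, and from 55.0, 57.5 and 57.1 CPM in TFc to 227, 169.8 and 196 CPM in TFs. The cultured level was nearly the same in the 3 organs, and every transplanted library was higher than every cultured one. Log2 fold changes were 1.53 ± 0.18, 2.02 ± 0.18 and 1.81 ± 0.18 (adjusted p 4.7e-06, 5.5e-07 and 2.7e-06), and no difference between organs passed. Pfkm, the muscle-type subunit, had values of 0.18, -0.21 and -0.11, none of which passed (adjusted p of 0.18 or above).

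Pfkp, the platelet-type subunit, had 46.0, 45.6 and 48.4 CPM in HFc and 38.8, 43.6 and 56.9 CPM in HFs. KFc libraries had 58.2, 57.7 and 53.5 CPM and KFs libraries 83.7, 107 and 135 CPM, and TFc libraries had 35.9, 35.9 and 36.3 CPM and TFs libraries 79.8, 52.5 and 57.3 CPM. In heart 2 transplanted libraries lay below the controls and 1 above, and in kidney and tail all lay above, yet under the fold limit (0.94 ± 0.17 and 0.81 ± 0.17). Its heart response was lower than that of kidney by -0.95 ± 0.24 (adjusted p 0.0096) and of tail by -0.81 ± 0.24 (adjusted p 0.025), the latter lost when any one of 7 of the 12 libraries was left out (adjusted p of 0.051 to 0.077). Pfkl accounted for 41% ± 0.68 (SD, n = 3) of the summed per-kilobase level of the 3 subunits in HFc and 64.8% ± 4.8 in HFs, 35.7% ± 1.0 in KFc and 60.3% ± 7.8 in KFs, and 43.3% ± 1.4 in TFc and 67.4% ± 0.34 in TFs, and the shares did not overlap in any organ.

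Pfkfb3, which makes the phosphofructokinase activator fructose-2,6-bisphosphate, went from 48.4, 42.4 and 47.7 CPM in HFc to 69.4, 105 and 105 CPM in HFs, from 22.3, 23.2 and 20.8 CPM in KFc to 119, 144 and 72.2 CPM in KFs, and from 17.1, 17.7 and 17.1 CPM in TFc to 124, 117 and 116 CPM in TFs. Transplanted groups reached similar levels from cultured levels that were highest in heart. The rises were 1.01 ± 0.19, 2.34 ± 0.20 and 2.78 ± 0.20 on the log2 scale (adjusted p 0.00036, 2.8e-07 and 1.2e-07). The heart response was lower than that of tail by -1.77 ± 0.27 (adjusted p 0.00034) and of kidney by -1.33 ± 0.27 (adjusted p 0.0022). The heart rise lay at the fold limit and was under it, at 0.96, when libraries were scaled by their size alone. The same was true without HFc replicate 2 (0.95), HFs replicate 2 (0.97) or HFs replicate 3 (0.96). Its relative Pfkfb4 passed in no organ (-0.12 to 0.39).

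Of the 9 members of lower glycolysis, 1 rose in heart, 4 in kidney and 1 in tail, where 18.3%, 14.7% and 11% of all genes rose. The medians over the 9 were 0.03, 0.93 and 0.67 on the log2 scale. Tpi1, triosephosphate isomerase, had 84.3, 81.1 and 82.5 CPM in HFc and 110.02, 129 and 135 CPM in HFs, 59.4, 58.0 and 57.4 CPM in KFc and 206, 283 and 153 CPM in KFs, and 72.7, 75.7 and 71.0 CPM in TFc and 215, 142 and 152 CPM in TFs. The groups did not overlap in any organ, but the heart value of 0.59 ± 0.18 (adjusted p 0.0099) was under the fold limit, whereas Tpi1 rose in kidney by 1.88 ± 0.18 (adjusted p 1e-06) and in tail by 1.22 ± 0.18 (adjusted p 8.9e-05). The heart response was lower than that of kidney by -1.28 ± 0.25 (adjusted p 0.0017).

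Pgk1, phosphoglycerate kinase, had 225, 235 and 225 CPM in HFc and 276, 322 and 388 CPM in HFs, 173, 166 and 172 CPM in KFc and 464, 626 and 299.7 CPM in KFs, and 162, 168 and 161 CPM in TFc and 427, 253 and 286 CPM in TFs. It was higher in every transplanted library and passed both thresholds in kidney (1.45 ± 0.22, adjusted p 7e-05), with 0.53 in heart and 0.98 in tail. Pgam1, phosphoglycerate mutase, had 214, 221 and 209 CPM in HFc and 184, 218 and 258 CPM in HFs, 192, 194 and 190.4 CPM in KFc and 347, 489 and 263 CPM in KFs, and 153, 157 and 163 CPM in TFc and 325, 211 and 233 CPM in TFs. Only its heart groups overlapped, and its values of 0.03, 0.93 and 0.70 were all under the fold limit. The heart responses of Pgk1 and Pgam1 were lower than those of kidney by -0.92 ± 0.31 (adjusted p 0.037) and -0.90 ± 0.27 (adjusted p 0.022), and neither difference passed without HFs replicate 1, without HFs replicate 2, without KFs replicate 2 or in a fit to the 4 groups alone. That of Pgk1 was also lost when any one HFc or KFc library was left out.

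Aldoa, the main aldolase, had 413, 413 and 397 CPM in HFc and 286, 327 and 379 CPM in HFs, all below the controls, 363, 353 and 347 CPM in KFc and 451, 612 and 383 CPM in KFs, and 276, 277 and 273 CPM in TFc and 433, 332 and 368 CPM in TFs. None of its values, -0.30, 0.44 and 0.46, reached the fold limit. The heart response was lower than those of tail (-0.76 ± 0.20, adjusted p 0.014) and kidney (-0.75 ± 0.20, adjusted p 0.013). Both calls were lost without HFs replicate 1 (adjusted p 0.065 and 0.067) and without HFs replicate 2 (0.054 and 0.057), and the second in a fit to the 4 groups alone (0.059). Aldoc, an isoform best known from brain, rose in kidney (1.61 ± 0.52, adjusted p 0.019) at levels of at most 4.01 CPM in any library, and without KFc replicate 3 the adjusted p was 0.08.

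Pkm, pyruvate kinase, was the member with the lowest value in tail. TFc libraries had 1480.0, 1463 and 1397 CPM and TFs libraries 1411, 865 and 917 CPM (log2 fold change -0.44 ± 0.21, adjusted p 0.1). HFc libraries had 884, 875 and 873 CPM and HFs libraries 591, 609 and 762 CPM (-0.42 ± 0.21, adjusted p 0.094), and KFc libraries had 912, 869 and 862 CPM and KFs libraries 1105, 1785 and 927 CPM (0.53 ± 0.21, adjusted p 0.046). Every HFs library was below HFc, every KFs library above KFc, and tail overlapped, with no value past the fold limit. The heart response was lower than that of kidney by -0.95 ± 0.29 (adjusted p 0.026) and the kidney response higher than that of tail by 0.97 ± 0.29 (adjusted p 0.044). Both were lost in fits to the 4 groups alone (adjusted p 0.056 and 0.13) and when any one of several libraries was left out, at up to 0.09 without KFs replicate 2 for the first and 0.11 without TFs replicate 2 for the second. Gapdh and Eno1, the glyceraldehyde-3-phosphate dehydrogenase and the ubiquitous enolase, did not pass in any organ (-0.24 to 0.62), and KFs replicate 3 had 364 CPM of Gapdh against 1118 and 1634 CPM in the other KFs libraries.

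Eno2, the enolase best known from neurons, had a heart-led pattern. HFc libraries had 1.64, 0.778 and 1.13 CPM and HFs libraries 12.3, 12.5 and 10.9 CPM (log2 fold change 3.33 ± 0.41, adjusted p 6e-06). KFc libraries had 10.8, 9.91 and 9.14 CPM and KFs libraries 16.5, 11.2 and 42.2 CPM, and TFc libraries had 10.8, 9.54 and 9.51 CPM and TFs libraries 13.3, 17.7 and 16.5 CPM. The heart level thus came from well below to about that of the other organs. The kidney rise of 1.23 ± 0.35 (adjusted p 0.0084) rested on replicate 3 and was 0.44 (adjusted p 0.082) without it, and the tail value was 0.67 ± 0.35 (adjusted p 0.14). The heart response exceeded that of tail by 2.65 ± 0.53 (adjusted p 0.0023) and of kidney by 2.10 ± 0.52 (adjusted p 0.0082, 2.92 without KFs replicate 3).

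Sequence shared with other genes limits some of these values. Of all 75-base windows in their transcripts, 52.8% in Pgk1, 34.9% in Pgam1, 23% in Eno1, 22.6% in Gapdh and 16.9% in Bnip3l also occur in another gene, for Gapdh in 105 genes that are mostly processed pseudogenes. The copies held 11.4% of the summed counts for Pgam1, 8.07% for Eno1, 7.76% for Higd1a and 7.7% for Gapdh. The division of reads between such copies is uncertain.

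Mitophagy genes rose unevenly. Bnip3 (ENSMUSG00000078566), a receptor that targets mitochondria to autophagosomes, went from 12.3, 12.5 and 15.4 CPM in HFc to 86.6, 132 and 169 CPM in HFs, from 16.9, 14.8 and 15.4 CPM in KFc to 187, 248 and 91.3 CPM in KFs, and from 34.2, 35.9 and 34.2 CPM in TFc to 239, 115 and 153 CPM in TFs. No groups overlapped between states, and TFc was the highest cultured group. Log2 fold changes were 3.27 ± 0.34, 3.48 ± 0.34 and 2.28 ± 0.32 (adjusted p 1.3e-06, 1.1e-06 and 6.3e-05). The kidney-to-tail difference of 1.2 ± 0.44 did not pass (adjusted p 0.096) but did without KFs replicate 3 (1.49, adjusted p 0.0067). The heart-to-tail difference also passed in that fit (1.04, adjusted p 0.026). Its relative Bnip3l was under the fold limit in all organs (0.66, 0.49 and 0.67, adjusted p of 0.0063 or below), and Higd1a, a mitochondrial membrane protein induced by hypoxia, rose in kidney (1.50 ± 0.30, adjusted p 0.00075) and tail (1.13 ± 0.30, adjusted p 0.0079).

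The other targets showed the widest range of responses. Car9, a carbonic anhydrase of the cell surface, was nearly absent from cultured heart and kidney fibroblasts. It had 1, 3 and 1 counts in HFc and 2, 14 and 21 counts in HFs, which gives a pooled ratio of 8.72 with a 95% exact interval of 3.42 to 28.4 that covers counting error only. KFc libraries had 0.0373, 0.209 and 0.233 CPM and KFs libraries 1.90, 1.63 and 0.481 CPM, and TFc libraries had 0.683, 0.51 and 0.351 CPM and TFs libraries 38.4, 10.9 and 22.6 CPM. Every transplanted library was above its controls in CPM, HFs replicate 1 with only 2 counts, and the TFs libraries were far above all others. The fitted log2 fold changes were 2.97 in heart (adjusted p 0.011), 3.01 ± 0.70 in kidney (adjusted p 0.0022) and 5.50 ± 0.64 in tail (adjusted p 8.9e-06), and no difference between organs passed (-2.53 between heart and tail, adjusted p 0.2; -2.49 ± 0.99 between kidney and tail, adjusted p 0.12). Without HFs replicate 3 the heart value had an adjusted p of 0.055.

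Ndrg1, a stress-induced gene of cell growth and differentiation, had 12.2, 12.2 and 12.5 CPM in HFc and 86.5, 217 and 113 CPM in HFs, and 7.61, 7.05 and 6.55 CPM in KFc and 111, 99.3 and 127 CPM in KFs. TFc libraries had 49.7, 49.6 and 52.0 CPM and TFs libraries 179, 82.0 and 115 CPM. All 3 transplanted groups overlapped each other, from cultured levels that did not. The rises were 3.5 ± 0.31, 3.99 ± 0.32 and 1.31 ± 0.28 (adjusted p 2.5e-07, 1.4e-07 and 0.0018), the last 0.97 without TFs replicate 1. Both heart (2.19 ± 0.40, adjusted p 0.0013) and kidney (2.68 ± 0.41, adjusted p 0.00072) responses exceeded that of tail.

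Vegfa, the angiogenic growth factor, had the opposite order. TFc libraries had 77.8, 71.4 and 73.9 CPM and TFs libraries 377, 222 and 257 CPM, with a log2 fold change of 1.94 ± 0.29 (adjusted p 8.6e-05). HFc libraries had 288, 282 and 276 CPM and HFs libraries 265, 454 and 662 CPM (0.71 ± 0.28, adjusted p 0.039), and KFc libraries had 308, 314 and 290.1 CPM and KFs libraries 379.8, 530.5 and 267 CPM (0.37 ± 0.27, adjusted p 0.28). Only tail separated fully. The tail response exceeded those of heart (difference -1.23 ± 0.39, adjusted p 0.033) and kidney (-1.57 ± 0.39, adjusted p 0.018), and the former missed the threshold without any one of several libraries, at 0.097 without TFs replicate 1.

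Ankrd37, an ankyrin-repeat protein, went from 2.91, 1.997 and 1.28 CPM in HFc to 5.47, 11.6 and 11.6 CPM in HFs, from 1.12, 1.29 and 0.665 CPM in KFc to 10.8, 9.78 and 8.90 CPM in KFs, and from 0.801, 0.824 and 0.658 CPM in TFc to 10.5, 7.13 and 9.08 CPM in TFs. It rose by 2.2 ± 0.33, 3.26 ± 0.34 and 3.53 ± 0.35 on the log2 scale (adjusted p 3.8e-05, 2.2e-06 and 2.5e-06). Ddit4, the mTORC1 inhibitor REDD1, went from 15.2, 14.4 and 15.3 CPM in HFc to 32.2, 35.3 and 37.6 CPM in HFs, from 10.6, 12.4 and 11.2 CPM in KFc to 41.3, 64.6 and 38.1 CPM in KFs, and from 9.35, 8.71 and 9.21 CPM in TFc to 31.8, 28.5 and 27.9 CPM in TFs. Both genes separated fully between states in all 3 organs. Ddit4 rose by 1.23 ± 0.15, 2.08 ± 0.16 and 1.69 ± 0.16 (adjusted p 7.9e-06, 8.7e-08 and 1.2e-06), less in heart than in kidney by -0.85 ± 0.22 (adjusted p 0.0091, 0.051 in a fit to the 4 groups alone). Kdm3a, a histone demethylase, rose in heart (1.15 ± 0.12, adjusted p 1.1e-06) and kidney (1.14 ± 0.12, adjusted p 1.8e-06) and had 0.98 ± 0.12 in tail (adjusted p 1.2e-05).

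Adm, the vasodilator adrenomedullin, was the other member that fell. HFc libraries had 240.2, 255 and 264 CPM and HFs libraries 40.2, 64.1 and 162 CPM, so that it fell by 1.51 ± 0.45 on the log2 scale (adjusted p 0.0095). The HFs libraries differed widely but all lay below HFc. In kidney (0.06 ± 0.44) and tail (0.26 ± 0.44) it did not pass, and without HFs replicate 1 or 2 the heart value was -1.11 or -1.27 with adjusted p of 0.053 and 0.056.

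**Figure D3:**
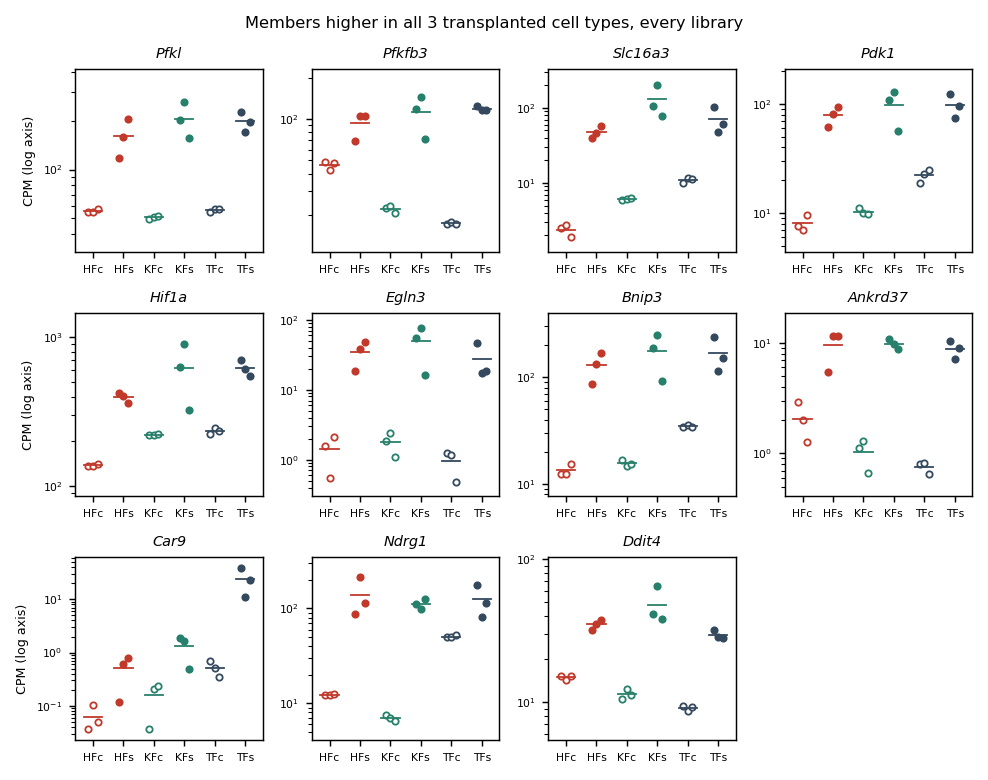
CPM (log axis) in each of the 18 libraries for the 11 members that passed both thresholds upwards in all 3 organs. Open points are cultured and filled points transplanted libraries, and lines are group means. Within each organ all filled points lie above the open ones, while cultured levels of Slc16a3, Pdk1, Bnip3, Ndrg1 and Pfkfb3 differ between organs.

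Within each transplanted group 1 library was highest and another lowest for most members. The same order was not counted over all genes, so it cannot be called a trait of the members. HFs replicate 3 had the highest level of its group for 28 of 35 members and HFs replicate 1 the lowest for 30. KFs replicate 2 was highest for 28 and KFs replicate 3 lowest for 30, and TFs replicate 1 was highest for 30 and TFs replicate 2 lowest for 26. Counts of called members are therefore tied to these libraries: without TFs replicate 1 the tail values of Gpi1, Higd1a and Ndrg1 were 1.00, 0.87 and 0.97.

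The promoters of the 4 members with the largest mean change among those that rose in all 3 organs and have an entry in the RefSeq promoter table (GRCm38.p6) are shown. They were chosen without regard to the letters bound by HIF, which are marked. Each is the 250 bases before the annotated start, 5′ to 3′ on the strand of the gene, and capitals mark ACGTG or GCGTG on either strand, overlapping matches included. They lie at chr12:54203875-54204124 on the minus strand (Egln3), chr4:43506776-43507025 on the plus strand (Car9), chr11:120948817-120949066 on the plus strand (Slc16a3) and chr7:138909507-138909756 on the minus strand (Bnip3).
Egln3: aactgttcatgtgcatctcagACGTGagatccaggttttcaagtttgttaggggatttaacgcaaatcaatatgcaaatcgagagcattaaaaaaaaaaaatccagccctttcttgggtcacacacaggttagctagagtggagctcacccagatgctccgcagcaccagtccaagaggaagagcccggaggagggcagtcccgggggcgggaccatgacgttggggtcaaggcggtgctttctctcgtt
Car9: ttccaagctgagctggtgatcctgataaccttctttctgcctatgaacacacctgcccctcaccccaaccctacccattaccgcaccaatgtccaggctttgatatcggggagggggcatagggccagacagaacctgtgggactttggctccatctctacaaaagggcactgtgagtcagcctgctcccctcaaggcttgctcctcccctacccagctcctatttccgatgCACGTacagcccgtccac
Slc16a3: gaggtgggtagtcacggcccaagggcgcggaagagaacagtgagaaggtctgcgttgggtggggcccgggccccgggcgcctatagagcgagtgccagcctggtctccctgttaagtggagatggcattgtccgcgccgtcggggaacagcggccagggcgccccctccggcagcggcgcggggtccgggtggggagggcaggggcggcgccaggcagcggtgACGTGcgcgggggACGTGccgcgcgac
Bnip3: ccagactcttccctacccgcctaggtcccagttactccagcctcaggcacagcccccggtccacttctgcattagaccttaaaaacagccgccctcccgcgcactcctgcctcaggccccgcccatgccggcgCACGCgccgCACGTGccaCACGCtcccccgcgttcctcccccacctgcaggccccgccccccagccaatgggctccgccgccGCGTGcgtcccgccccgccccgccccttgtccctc

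The Egln3 window held 1 match, 229 bases before the start, and that of Car9 held 1, 18 bases before it. Slc16a3 had 2 matches, 27 and 14 bases before the start, and Bnip3 had 5, of which 2 are the overlapping strands of 1 palindrome. Windows were found for 32 of the 35 members, all but Epas1, Bnip3l and Ndrg1. Either motif was present in 29 of these 32 (90.6%), against 41.5% of 27025 genes with a window, and ACGTG in 18 (56.2%) against 18.5%. Among the 10 members with a window that rose in all 3 organs, all held either motif and 8 held ACGTG, and among the other 22 members 19 and 10 did. GCGTG went the other way, with 6 of the 10 (60%) and 15 of the 22 (68.2%). Member windows were richer in G and C, with medians of 61.3% and 14 CpG pairs against 52.4% and 6 over all genes. Those of the 10 members that rose in all 3 organs had medians of 65.4% and 16.5 CpG pairs. The part of base composition in these shares was not tested. A match describes letters and is not evidence of binding, and the members were chosen to include known HIF targets.

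The question whether organs responded alike was answered by interaction contrasts (adjusted p under 0.05). Between heart and tail 12 members differed, 4 with a larger and 8 with a smaller response in heart, against 22.8% of all genes in either direction, 10.1% larger and 12.7% smaller. Between kidney and tail 5 differed (3 larger, 2 smaller) against 11.1% of all genes, 4.99% larger and 6.07% smaller, and between heart and kidney 12 differed (1 larger, 11 smaller) against 26.2% of all genes, 10.7% larger and 15.5% smaller. The members' shares were 34.3%, 14.3% and 34.3%, not far above those of all genes, and the excess was not tested. Of these calls 7 of 12, 3 of 5 and 7 of 12 were lost in some alternative. In all, 18 members differed in at least 1 contrast. Of the 11 members with a smaller response in heart than in kidney, 9 were glycolytic, as were 21 of all 35 members. The difference between these shares was not tested. Epas1, Slc16a3, Vegfa and Ndrg1 were called in both contrasts with tail. Any 2 of the 3 contrasts share the libraries of 1 organ. Without KFs replicate 3 the counts were 19, 9 and 17, and no call was lost. The shares of all genes called in that fit are not given here. Between heart and tail, Tpi1 (-0.57, adjusted p 0.027), Pgam1 (-0.62, adjusted p 0.03), Eno1 (-0.79, adjusted p 0.011) and Ldha (-0.65, adjusted p 0.046) were gained. Bnip3 (1.04, adjusted p 0.026), Ankrd37 (-1.29, adjusted p 0.044) and Adm (-1.72, adjusted p 0.0069) were gained there too. Tpi1 (0.83, adjusted p 0.007), Pgk1 (0.68, adjusted p 0.048), Pdk1 and Bnip3 were gained between kidney and tail. Gpi1 (-0.86, adjusted p 0.0047), Gapdh (-0.96, adjusted p 0.008), Eno1 (-1.15, adjusted p 0.0012), Higd1a (-1.06, adjusted p 0.014) and Adm (-1.92, adjusted p 0.0046) were gained between heart and kidney.

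**Figure D4:**
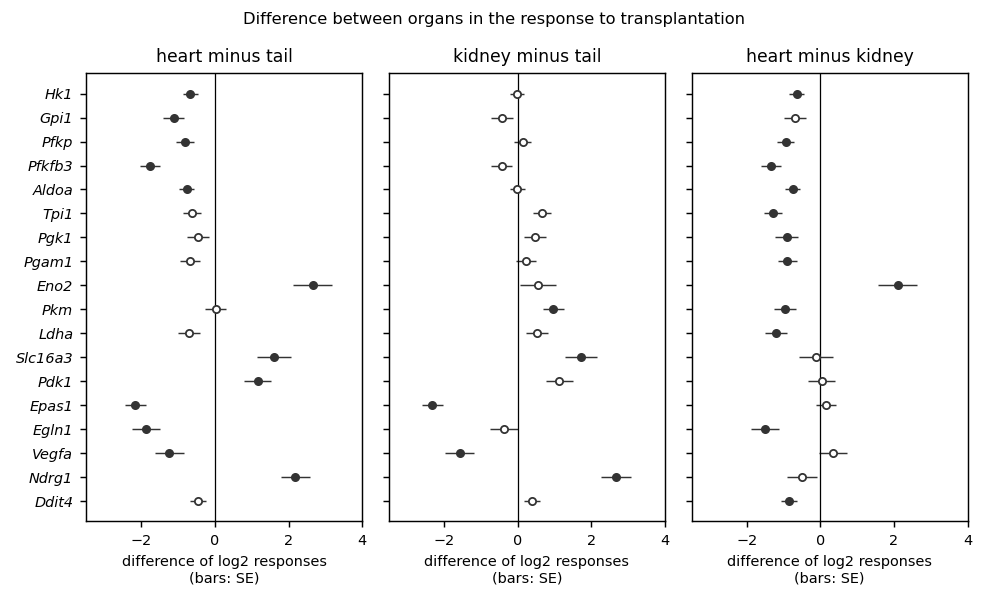
Difference between organs in the log2 response to transplantation for the 18 members with at least 1 called difference, with SE bars and filled points where the adjusted p was under 0.05. Eno2 lies to the right in both contrasts of heart, at 2.65 and 2.10, and Epas1 to the left in both contrasts with tail, at -2.16 and -2.31.

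Cultured fibroblasts of heart and tail differed more in these genes than the transplanted cells did, and the share of all genes called was also lower after transplantation. Between HFc and TFc 20 members differed (8 higher, 12 lower in heart, against 20.9% and 21% of all genes, 41.9% in all), and between HFs and TFs 5 did (1 higher, 4 lower, against 10.3% and 12.7%, 23.1% in all). The count between HFs and TFs depends on the scaling and was far larger with library size alone, as given further below. The median absolute log2 difference over the members was 0.72 in culture and 0.35 after transplantation, and it was smaller after transplantation for 25 of 35. These values were not computed over all genes. Epas1, Aldoc, Car9 and Pkm were called in the same direction in both states. Between KFc and TFc 12 members differed (6 each way, against 17.8% of all genes higher and 18.5% lower, 36.4% in all) and between KFs and TFs 8 (5 higher, 3 lower in kidney, against 15.3% and 13.8%, 29.1% in all), with medians of 0.35 and 0.44. Between HFc and KFc 13 differed (6 higher, 7 lower in heart, against 15.1% and 14% of all genes, 29.2% in all) and between HFs and KFs 16 (1 higher, 15 lower, against 14.2% and 19%, 33.2% in all), with medians of 0.39 and 0.54. These counts depend on the shared estimate of the spread: fits to the 2 groups alone called 31, 23 and 26 members in the cultured comparisons and 4, 3 and 3 in the transplanted ones. Without KFs replicate 3 the transplanted counts were 14, 20 and 26. The shares of all genes called in these fits are not given here, so the counts show only how far the calls depend on the fit.

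Epas1 had the largest difference between organs in culture. It was higher in heart than in tail by 3.84 in culture and 1.69 after transplantation, and higher than in kidney by 3.19 and 3.35. In kidney it was above tail by 0.65 in culture and below tail by a log2 difference of -1.66 after transplantation. Hk2 was higher in kidney than in tail by 1.35 in culture and 1.44 after transplantation, and Slc2a1 was lower in heart than in kidney by log2 differences of -1.12 and -1.63. Slc16a3 was lower in KFc than in TFc by -0.84 (adjusted p 0.0496) and higher in KFs than in TFs by 0.88 (adjusted p 0.034). All of these differences passed the threshold.

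**Figure D5:**
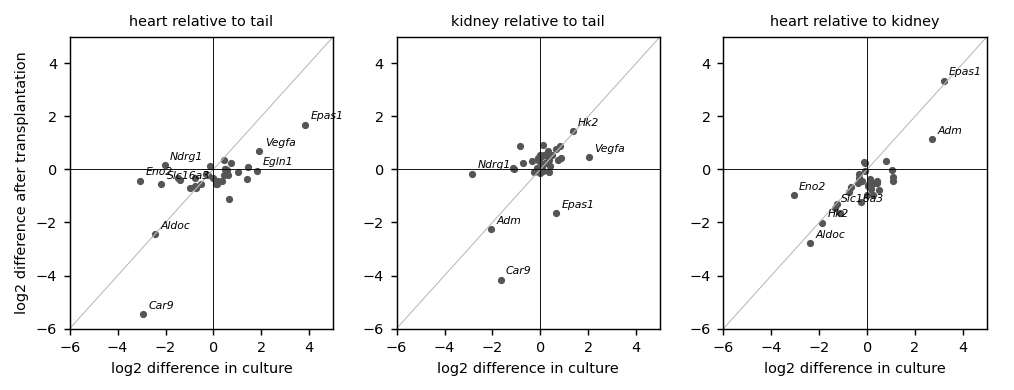
Log2 difference between 2 organs of each of the 35 members in culture (x axis) and after transplantation (y axis), with the line of equality in grey and members with large differences named. For heart relative to tail 25 of 35 points lie closer to 0 on the y axis than on the x axis, and for kidney relative to tail Epas1 changes sign.

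Per kilobase of transcript, the level of Gapdh was the highest of the members in HFc (549 ± 13, mean ± SD, n = 3), KFc (529 ± 13), KFs (732 ± 450.04) and TFs (502 ± 166). In TFc Pkm was highest (595 ± 18) and in HFs Vegfa (704 ± 304), a value that rests on a principal transcript of only 654 bases, the shortest of the members. In the 3 transplanted groups the SDs of the top members were too wide to order them. Car9 was lowest in all 3 cultured groups, from 0.031 in HFc to 0.25 in TFc, and Aldoc in HFs (0.17) and TFs (0.95).

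Other genes of the same pathways, listed apart from the members, moved in part with them. Of 30 further hypoxia response genes, 11 rose and 4 fell in heart, 15 rose and 4 fell in kidney, and 11 rose and 3 fell in tail, with medians of 0.65, 0.96 and 0.80 on the log2 scale. The shares of all genes that rose were 18.3%, 14.7% and 11%, and those that fell 9.33%, 7.99% and 5.53%. Among those that fell, named after their values were seen, were Cited2 in all 3 organs, Edn1 in heart and kidney, Tfrc in heart and Hmox1 in kidney and tail. Cited2, which competes with HIF for a coactivator, had log2 values of -1.82, -1.55 and -2.39. Angptl4, a secreted inhibitor of lipoprotein lipase, rose by 5.59 ± 0.18, 5.75 ± 0.19 and 5.38 ± 0.18 on the log2 scale (adjusted p 4.8e-11, 4.7e-11 and 8.2e-11). Nos2, the inducible nitric oxide synthase, had 2 counts in HFc against 1501 in HFs and 2 in TFc against 4946 in TFs, pooled ratios of 883.9 (95% exact interval 244.3 to 7305) and 3154 (872.5 to 26050). It had no count in KFc and was at least 459.9-fold higher in KFs, measured against a floor of 3 counts per library, and at least 211.4-fold without KFs replicate 2. The tail ratio was 2003 without TFs replicate 1. Pgf, a growth factor related to VEGF, rose in heart (4.13 ± 1.00, adjusted p 0.0025) and kidney (2.65 ± 0.82, adjusted p 0.014), where KFs libraries had 273, 1337 and 129 counts and the value was 1.32 (adjusted p 0.16) without replicate 2. Among 10 genes of oxygen sensing other than the members, 1 rose in each organ, Hif3a, which encodes HIF-3α (3.95 ± 1.02, 3.03 ± 1.03 and 2.81 ± 1.07), and 2 fell in heart, Arnt2 (-1.31 ± 0.39) and the elongin subunit Elob (-1.04 ± 0.14). Hif3a had at most 7 counts in any cultured library and 11, 24 and 125 in HFs, and its heart value was 2.68 without HFs replicate 3. Its kidney call was lost without KFc replicate 1, KFc replicate 2 or KFs replicate 1 and its tail call without any one of the 6 tail libraries, with adjusted p of up to 0.099 and 0.14. Elob was at -0.96, under the fold limit, without HFs replicate 2 or 3, and Arnt2 passed in kidney (-1.16) without KFs replicate 3.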

How the data were processed

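Stranded libraries, 18 in all, gave reads of 75 bases, which the authors trimmed and filtered for quality. They ran RSEM with the aligner Bowtie2 and deposited its expected counts. The deposited values were whole numbers without normalization, one column per library. The methods of the study name GRCm38 and the labels name mm9, so that no coordinate was taken from the counts, and the annotation release is not given in the sources used here. Estimated counts share reads between similar genes, and total RNA kits also sample unspliced RNA, which was not separated.

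Groups followed the sample titles. Genes were filtered with filterByExpr and scaled by TMM in edgeR 4.0.16 (R 4.3.3), and all 18 libraries were fitted with 1 mean per group and 1 shared estimate of the spread (biological coefficient of variation 0.24), by the quasi-likelihood test with Benjamini-Hochberg adjustment over 16577 genes. Transplanted and cultured cells were compared at an adjusted p under 0.05 and a log2 fold change beyond 1 in either direction, organs and responses at the adjusted p alone. An SE is the log2 value divided by the square root of F. CPM are TMM-scaled. Shared sequence was found as 75-base windows of GENCODE M21 transcripts (GRCm38). The test was checked on simulated data. No 2 libraries agreed within sampling noise.

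The members, gene lists and tests were chosen with earlier results of these data known. Values in every library are given for members that passed in all 3 organs, members with a called difference between responses, and the member with the largest rise and fall in each organ, and up to 3 genes with the largest called change are named from each further list. Alternatives were DESeq2 1.42.0, its size factors, library size alone, filters set to none or to a mean count of 10, a replicate block, only the groups compared, summed copies, other thresholds, each library left out, and all fits without KFs replicate 3. Some genes counted in the lists of other pathway genes are not reported here by name.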

Additional observations from a re-analysis of the deposited data

Results flagged for a closer look

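The responses of 18 members differed between 2 organs by the interaction test in edgeR, 29 differences in all, and each is given on the log2 scale as the response of the first organ minus that of the second. Groups of 3 libraries were not tested for a single outlying library.

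Heart relative to tail, the response was smaller for Hk1 (-0.66), Gpi1 (-1.12), Pfkp (-0.81), Pfkfb3 (-1.77), Aldoa (-0.76), Epas1 (-2.16), Egln1 (-1.86) and Vegfa (-1.23), and larger for Eno2 (2.65), Slc16a3 (1.61), Pdk1 (1.16) and Ndrg1 (2.19). For Epas1 the sign itself differed, with a fall in heart and a value of 0.36 that did not pass in tail.

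Kidney relative to tail, the response was larger for Pkm (0.97), Slc16a3 (1.72) and Ndrg1 (2.68) and smaller for Epas1 (-2.31) and Vegfa (-1.57). Heart relative to kidney, it was larger for Eno2 (2.10) and smaller for Hk1 (-0.65), Pfkp (-0.95), Pfkfb3 (-1.33), Aldoa (-0.75), Tpi1 (-1.28), Pgk1 (-0.92), Pgam1 (-0.90), Pkm (-0.95), Ldha (-1.21), Egln1 (-1.50) and Ddit4 (-0.85).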

How the results depend on the processing

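None of the 82 called values of single members reversed under any alternative, 55 kept their call throughout and 27 lost it in at least 1. In the transplant comparisons 3 of 16 calls were lost in some alternative in heart (Adm, Car9, Pfkfb3), 4 of 21 in kidney (Aldoc, Egln1, Eno2, Ldha) and 3 of 16 in tail (Gpi1, Higd1a, Ndrg1). Between responses 7 of 12 were lost for heart and tail, 3 of 5 for kidney and tail and 7 of 12 for heart and kidney. Of 128 values that did not pass, 36 changed sign and 44 passed in some alternative.

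Counts of members moved by more than 1.5 times as follows, and the causes were not tested. The shares of all genes called in these fits, and in those below with 1 library left out, are not given here. Scaling by library size alone called 18 members between HFs and TFs, and shifted the median of all genes from -0.03 to -0.25 there and from -0.04 to -0.25 between HFs and KFs. Fits to only the groups compared called 19 members between the heart and tail responses, 3 between kidney and tail and 7 between heart and kidney, 31 between HFc and TFc, 23 between KFc and TFc, 26 between HFc and KFc, 3 between KFs and TFs and 3 between HFs and KFs. With all fits made without KFs replicate 3 the counts were 19 for the heart and tail responses, 9 for kidney and tail, 14 between HFs and TFs, 20 between KFs and TFs and 26 between HFs and KFs. By construction fewer passed at an adjusted p under 0.01 (5, 2 and 7 responses for heart and tail, kidney and tail, and heart and kidney, 7 between KFc and TFc and 3 between HFs and TFs) or with a log2 size above 1 (5 heart and kidney responses, 13 between HFc and TFc, 6 between KFc and TFc, 3 between HFs and TFs, 4 between KFs and TFs and 6 between HFs and KFs), and more without a fold limit (25 in TFs relative to TFc).

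With each library left out in turn, counts ranged from 14 to 17 for HFs relative to HFc, 19 to 22 for KFs relative to KFc and 13 to 19 for TFs relative to TFc, from 7 to 12, 4 to 9 and 7 to 17 for the heart and tail, kidney and tail, and heart and kidney responses, from 17 to 20, 9 to 10 and 9 to 11 for HFc and TFc, KFc and TFc, and HFc and KFc, and from 3 to 8, 6 to 20 and 13 to 26 for HFs and TFs, KFs and TFs, and HFs and KFs. The highest counts of 9, 20 and 26 came without KFs replicate 3. Without TFs replicate 1 the kidney and tail responses numbered 8 and KFs and TFs differed in 14, without HFs replicate 1 or 2 the heart and kidney responses numbered 7, and between HFs and TFs 3 differed without HFs replicate 2 and 8 without HFs replicate 3.

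Replicate numbers are shared between groups, but same-numbered libraries did not deviate together (correlations of -0.0423 to 0.045), so that they share only a number. With the number as a replicate block the counts were 16, 21 and 16 for the transplant comparisons and 10, 4 and 11 for the responses, and between organs 20, 10, 12, 5, 7 and 14. Depth limited Car9 most, with at most 3 counts in each HFc library.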

Other observations

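Genes of the pentose phosphate pathway, which takes glucose-6-phosphate away from glycolysis, did not rise with the members in heart. Of 7 genes 3 fell in HFs relative to HFc, where 9.33% of all genes fell. In KFs relative to KFc 1 rose, where 14.7% of all genes rose. Those that fell in heart were Taldo1, transaldolase, by a log2 change of -1.80 ± 0.11 (SE, adjusted p 9.1e-09), G6pdx, the first enzyme of the pathway, by -1.38 ± 0.10 (adjusted p 3.1e-08) and Tkt, transketolase, by -1.15 ± 0.13 (adjusted p 2.2e-06), by edgeR's quasi-likelihood test. The medians over the 7 were -0.81, -0.68 and -0.37 in heart, kidney and tail. In kidney 1 rose, Rpia (1.06, named after its value was seen; 0.84 without KFs replicate 3), and in kidney and tail the values of Taldo1 (-0.96 and -0.62), G6pdx (-0.85 and -0.37) and Tkt (-0.32 and -0.35) stayed short of the fold limit, Taldo1 passing in kidney (-1.07) without KFs replicate 3. All 3 heart responses were lower than those of tail, by -1.18 ± 0.16 for Taldo1, -1.01 ± 0.14 for G6pdx and -0.80 ± 0.18 for Tkt (adjusted p 9.2e-05, 0.00011 and 0.0047).

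Of 7 gluconeogenic genes tested, 4 rose in heart, 3 in kidney and 3 in tail, where 1 fell. Of all genes 18.3%, 14.7% and 11% rose in these organs, and 5.53% fell in tail. Slc37a4 in heart (1.28) and Pck2 in tail (-1.12) are named after their values were seen, and the others are named next. Pck1, phosphoenolpyruvate carboxykinase, had no count in any cultured library and was at least 322.4-fold, 78.4-fold and 118.5-fold higher in HFs, KFs and TFs, against a floor of 3 counts per library. G6pc, glucose-6-phosphatase, was at least 72.2-fold, 7.39-fold and 26.8-fold higher, but HFs replicate 2, the library with the highest sum of tubule markers, held 524 of its 581 HFs counts, and without it the heart bound was 11.6-fold. Fbp1 was at least 14-fold higher in KFs (9.3-fold without replicate 1) and 59.7-fold in TFs (37.8-fold without replicate 1). These enzymes are also abundant in proximal tubule cells, whose 12 markers all rose in heart and tail and 10 of them in kidney, and their part in these values was not tested. Among 17 tested isoforms of the glycolytic steps other than the members, 6 rose and 1 fell in heart, 4 rose and 4 fell in kidney, and 3 rose and 2 fell in tail, against 18.3%, 14.7% and 11% of all genes that rose and 9.33%, 7.99% and 5.53% that fell. Bpgm, named after its values were seen, fell in all 3 organs (-1.06, -1.07 and -1.37), the first -0.91 without HFs replicate 3 and the second -0.996 without KFs replicate 1, and Slc16a1, the lactate transporter MCT1, likewise named, rose in kidney (2.35) and tail (2.66).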
